A study of Mus musculus with 60 samples.

Results

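Metabotropic glutamate receptors are G protein-coupled receptors that set the strength of synaptic transmission over a slower time course than the glutamate-gated channels. Group I receptors, among them Grm5, act through Gq and phospholipase C, mainly on the postsynaptic side, and Grm5 is abundant in the projection neurons of the striatum. Group II (Grm2, Grm3) and group III receptors (Grm4, Grm6, Grm7, Grm8) act through Gi/o proteins and in large part sit on presynaptic terminals, where they restrain transmitter release. Grm3 is also carried by astrocytes.

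The genes described are Grm2, Grm3, Grm4, Grm5, Grm7 and Grm8, chosen by name, and they are 6 of the 47574 gene entries used. They were followed in 60 RNA-seq libraries from c57BL-6N mice, by their labels 1 from each tissue, cortex and striatum, of 30 animals that were 3 months old. The Δ12 line carries a deletion in Htt, the mouse huntingtin gene, that shortens an exon and leaves a splice donor in place, and its groups were +/+, Δ12/+ and Δ12/Δ12. The KO line carries an imprecise deletion from the same editing that removes a splice donor of Htt, and its groups were +/+ and KO/+. Each of the 10 groups of line, genotype and labelled tissue held 6 libraries, 3 labelled male and 3 female, and each genotype was compared with +/+ of its line. The alleles were made by editing mouse embryonic stem cells, and the tissue was whole dissected tissue, so fewer cells of a type and less RNA per cell cannot be told apart.

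The labels and the contents of the libraries disagreed in part. Slc17a7, which encodes the vesicular glutamate transporter of cortical excitatory neurons, lay between 121 and 234 deposited FPKM in 30 libraries and between 4.81 and 64.8 in the other 30. The former are called cortex-like and the latter striatum-like. Drd2, the dopamine receptor of striatopallidal neurons, lay between 0 and 18.5 FPKM in the cortex-like and between 29.4 and 61.8 in the striatum-like libraries. All 8 striatal projection neuron markers had their higher median in the striatum-like class, where their summed level was 1071 to 2068 against 106 to 562, and 5 of 6 cortical excitatory neuron markers had it in the cortex-like class. Only 30 of 60 libraries were of the class that their labelled tissue names. In the Δ12 line, +/+ and Δ12/+ were cortex-like under both labels, and Δ12/Δ12 was cortex-like in the libraries labelled male and striatum-like in those labelled female. The KO line was striatum-like under both labels. The sex-linked transcripts Xist and Ddx3y fitted the sex label of 30 of 60 libraries. Htt, the edited gene, was at 12.7 to 19.7 scaled FPKM (median 16.8) in KO/+ labelled striatum and 16.8 to 20.7 (17.5) in its +/+, and at 13.9 to 20 (17.1) and 16.6 to 20.2 (17.4) under the cortex label, so the groups overlapped. Other marker lists differed between the classes too. The medians of the summed levels in cortex-like and striatum-like libraries were 388 and 204 for interneurons, 396 and 488 for astrocytes, 293 and 555 for oligodendrocytes, 6.46 and 10.4 for their precursors, and 20.5 and 38.7 for microglia. They were 7.07 and 961 for choroid plexus, 6.64 and 21.8 for thalamus, 78.4 and 2.52 for hypothalamus, 6.92 and 3.07 for leptomeninges, and 0.0334 and 0.00383 for cerebellar granule cells. In each of the lists for interneurons, astrocytes, oligodendrocytes, microglia and thalamus, 1 marker had its higher median in the other class. No library was moved between groups, and levels are therefore given by expression class as a description with no test, and by label with a test.

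The classes also differed by transcript length. Among 12256 genes with a mean scaled FPKM of at least 2, the 1126 whose longest annotated transcript had 200 to under 1000 bases had a median log2 ratio of striatum-like to cortex-like of -1.19. The median was -0.06 for the 4234 genes of 2000 to under 4000 bases, 0.50 for the 3692 of 4000 to under 8000 bases, and 0.81 for the 745 of 8000 bases or more. A score per library, the median log2 deviation of genes of 8000 bases or more minus that of genes of 1000 to under 2000 bases, ran from -1.10 to -0.32 in cortex-like and from 0.62 to 0.90 in striatum-like libraries, with no overlap. The longest transcripts of the 6 receptor genes have 3049 (Grm3) to 8047 bases (Grm5), so this length gradient stands beside every class difference below. Its part in those differences was not tested, and line, class and length gradient cannot be told apart in most groups.

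All coordinates are those of GRCm38, with the span of the deposited gene entry. Grm5 lies on the plus strand at chr7:87584168-88134907 and Grm7 on the plus strand at chr6:110645581-111567230. Grm2 (chr9:106643095-106656082), Grm3 (chr5:9485541-9725170), Grm4 (chr17:27422387-27513341) and Grm8 (chr6:27275119-28135178) lie on the minus strand. The genes differ greatly in extent, from 13 kb for Grm2 to 922 kb for Grm7. Exons of Gm28111 overlap Grm2 and exons of Gm20387 overlap Grm7 on the opposite strand. The libraries were directional, but the use of strand in the quantification is not given in the sources used here, so reads of those pairs may not be separated.

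The 250 bases before the RefSeq transcription start (GRCm38.p6, minus strand) are shown for the group II receptors, because Grm2 and Grm3 differed in opposite directions between the classes. Capitals mark matches on either strand to the GC box GGGCGG or to CCAAT.
Grm2, chr9:106656110-106656359: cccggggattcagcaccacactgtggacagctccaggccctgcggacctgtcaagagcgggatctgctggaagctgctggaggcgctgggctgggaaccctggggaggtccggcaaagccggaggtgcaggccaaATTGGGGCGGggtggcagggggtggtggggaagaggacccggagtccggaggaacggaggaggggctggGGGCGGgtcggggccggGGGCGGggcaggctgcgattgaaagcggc
Grm3, chr5:9725353-9725602: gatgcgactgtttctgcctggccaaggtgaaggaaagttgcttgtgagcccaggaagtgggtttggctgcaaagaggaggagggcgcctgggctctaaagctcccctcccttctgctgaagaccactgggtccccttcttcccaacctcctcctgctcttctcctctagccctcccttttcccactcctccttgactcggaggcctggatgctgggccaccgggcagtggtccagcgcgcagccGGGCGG
The Grm2 window is richer in C and G (71.2% against 62.4%, with a median of 52.4% over 32544 such mouse windows) and holds 16 CpG dinucleotides against 8, where the median is 6. It contains GGGCGG 3 times and CCAAT 1 time, in reverse and overlapping a GC box by its last letter, while the Grm3 window holds 1 GC box at its 3′ end. A GC box on either strand was present in 33% and CCAAT in 33.8% of all windows. The TATA box TATAAA was searched on both strands as well and was in neither window (12.3% of all windows). RefSeq promoter windows were at hand for 4 of the 6 genes.

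Among the 6 receptor genes Grm2 alone had its higher scaled median in the cortex-like class, although Grm4 joined it, by a ratio of 0.993, on the FPKM as deposited. The Grm2 scaled FPKM, the deposited FPKM divided by a factor per library, had a lowest value of 2, a median of 3.7 and a highest value of 7.1 in the 30 cortex-like libraries. In the 30 striatum-like libraries the corresponding values were 0.242, 0.778 and 1.61. The ranges did not overlap, and the cortex-like median was 4.75 times the striatum-like one. This direction was opposite to the median of genes of its length class (4711 bases), and it was the same under every scaling, with a striatum-like to cortex-like ratio of 0.21, of 0.158 on the FPKM as deposited and of 0.165 after quantile normalization. Grm2 was also the least precisely measured member, with a deposited confidence interval of 67.2% of the value on the upper side (median) in striatum-like libraries and 21.3% in cortex-like ones.

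Grm3, the other group II receptor, had the reverse pattern. It ranged from 16 through a median of 24.2 to 28.8 in cortex-like libraries and from 29.6 through 37.9 to 44.9 in striatum-like ones. The highest cortex-like library lay just under the lowest striatum-like library. The ratio of medians was 1.57, but only 1.17 on the FPKM as deposited and 2.17 after quantile normalization. Because Grm2 and Grm3 ran in opposite directions, the ratio of Grm3 to Grm2 within a library, which needs no scaling between libraries, was 2.84 to 12.8 (median 6.45) in cortex-like and 19.5 to 157 (median 49.7) in striatum-like libraries, without overlap. This separation follows from the ranges of the single genes and is no further result. The value of 157 came from the library with the lowest Grm2, striatum KO-line +/+ female 2 (0.242).

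Grm5, the group I member, was the highest of the 6 genes in all 60 libraries. Its scaled FPKM ran from 38.7 through a median of 51.4 to 64.8 in the cortex-like class and from 63.6 through 84 to 118 in the striatum-like class. A single library of each class lay within the range of the other. The ratio of medians was 1.63, or 0.70 on the log2 scale. That lies between the medians of 0.50 for genes of 4000 to under 8000 bases and 0.81 for those of 8000 bases or more. The longest Grm5 transcript has 8047 bases, near the border of these bins. The ratio of medians was 1.3 on the FPKM as deposited and 3.1 after quantile normalization.

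Of the group III genes, Grm4 and Grm8 differed less, while Grm7 differed about as much as Grm3. Grm7, a receptor of the presynaptic active zone, ran from 11.5 through 14.5 to 17 in cortex-like and from 17 through 22.1 to 31.4 in striatum-like libraries, with 1 library of each class inside the range of the other. Its ratio of medians was 1.53 (1.2 as deposited and 1.82 after quantile normalization). Grm8 ran from 2.2 through 3.4 to 6.39 and from 3.2 through 4.59 to 7.15, and 27 of 30 striatum-like libraries lay inside the cortex-like range. Grm4 ran from 4.01 through 11.2 to 19.6 and from 11.7 through 14.1 to 20.4, and 29 of 30 striatum-like libraries lay inside the cortex-like range. The Grm4 ratio of 1.26 turned to 0.993 on the FPKM as deposited, and the Grm8 ratio of 1.35 moved to 1.03. The spread of Grm4 differed between classes: its highest library was 4.88 times its lowest in the cortex-like class and 1.75 times in the striatum-like class.

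**Figure D1:**
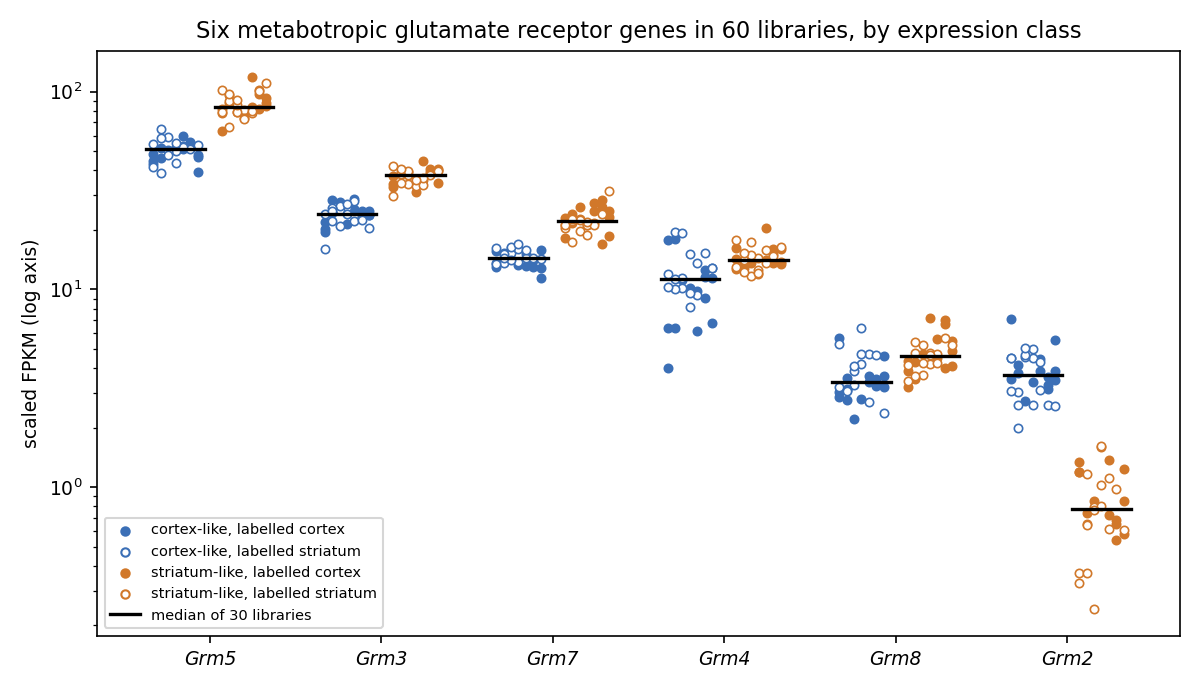
Scaled FPKM (log axis) of the 6 receptor genes in each of 60 libraries, blue for cortex-like and orange for striatum-like, filled for libraries labelled cortex and open for those labelled striatum, with bars at the median of 30 libraries. Grm2 is the gene whose blue points all lie above the orange ones, Grm3 the gene whose orange points all lie above the blue ones, and filled and open points mix within each class.

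Counted over the whole table, 36.2% of 16076 genes had classes that did not overlap, 19.3% with the striatum-like and 16.9% with the cortex-like libraries higher. Of the 6 receptor genes, 2 did not overlap, 1 in each direction, a share near that background. The median log2 ratio was 0.49 over the 6 genes and 0.03 over all genes, and the latter became -0.18 on the FPKM as deposited.

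The order of the genes was the same in both classes for the upper 4: Grm5, Grm3, Grm7 and Grm4. Grm5 exceeded Grm3 and Grm3 exceeded Grm7 in 30 of 30 libraries of each class. Grm7 exceeded Grm4 in 30 of 30 striatum-like and in 25 of 30 cortex-like libraries, where the neighbours therefore overlapped. Grm2 and Grm8 changed places: Grm8 was above Grm2 in 30 of 30 striatum-like libraries, and Grm2 was above Grm8 in 20 of 30 cortex-like libraries, with medians of 3.7 and 3.4. The sum of the 6 genes was 89.9 to 123 in cortex-like and 134 to 216 in striatum-like libraries. Grm5 made up a median of 47.1% and 52.3% of that sum, Grm3 21.4% and 22.6%, Grm7 13.5% in both, Grm4 10.3% and 8.53%, Grm8 3.2% and 2.85%, and Grm2 3.43% and 0.473%. The share of Grm2 was thus the one that did not overlap between classes, from 1.62% to 7.21% against 0.144% to 1.05%.

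**Figure D2:**
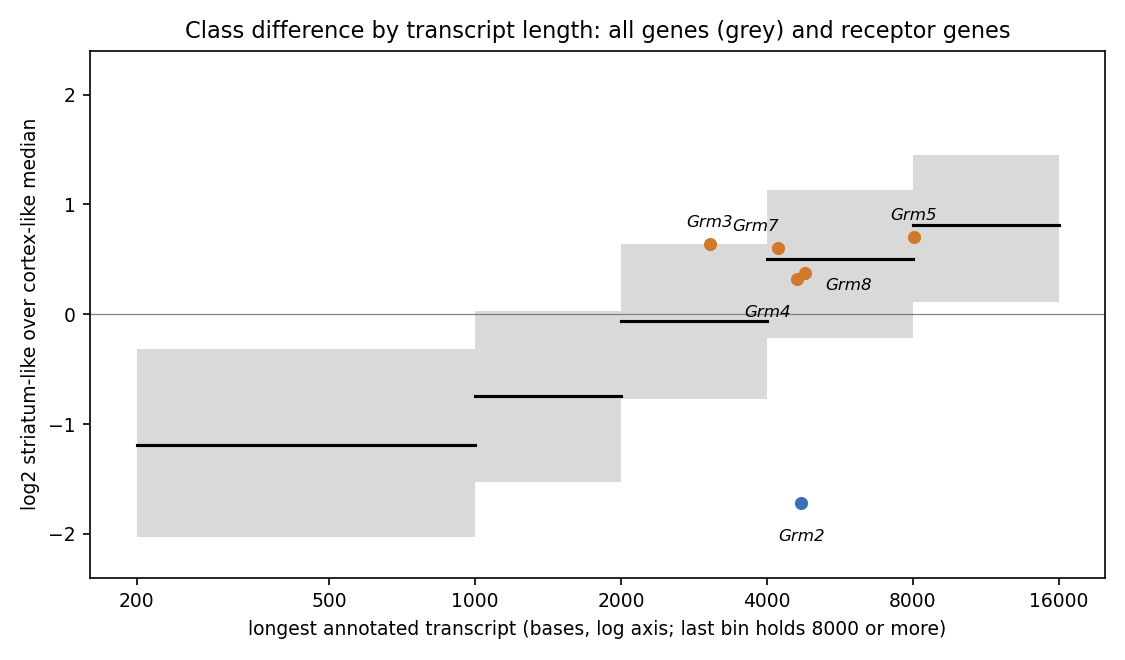
Log2 ratio of the striatum-like to the cortex-like median (vertical axis) against the longest annotated transcript in bases (log axis), with black lines for the median and grey boxes for the quartiles of all genes in 5 length bins, and points for the 6 receptor genes. The median of all genes climbs from -1.19 in the shortest to 0.81 in the longest bin, Grm4, Grm5, Grm7 and Grm8 lie within the quartiles of their bin, Grm3 lies at the upper quartile, and Grm2 lies outside.

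The rest of the pathway was read from a list of 29 genes, of which 28 had a level above 0 in both class medians and Grm6, the receptor of retinal bipolar cells, was listed at 0 in 55 of 60 libraries. The striatum-like median was at least 2 times the cortex-like one for 13 of the 28 and the reverse held for 0, where 25.1% and 22% of the 15260 genes with both medians above 0 were that far apart in these directions. Among scaffold proteins, Shank3 differed most (5.7 in cortex-like and 56.8 in striatum-like libraries, 9.96 times), followed by Shank1 (4.93 times), Grasp (2.86 times) and Ncdn, which encodes the Grm5-binding protein neurochondrin (2.58 times). Of the signalling genes, Gnao1, the alpha subunit of Go, was 6.44 times higher, Itpr1, the IP3 receptor on which group I signalling releases calcium, 5.62 times, Gnaq 2.41 times and Gnai2 2.06 times. Elfn2, a postsynaptic adhesion protein that binds group III receptors across the synapse, was 3.35 times, and Slc1a1 and Glul of glutamate uptake and recycling 2.27 and 2.22 times higher. Homer1, the scaffold that ties group I receptors to IP3 receptors, had a lower striatum-like median (74.9 against 130). The median log2 ratio of the 28 genes was 0.76. The classes did not overlap for 13 of them, 12 with the striatum-like class higher, beside 36.2% of all genes, 19.3% with that class higher.

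By label, no receptor gene differed between the labelled tissues. Each label held 15 cortex-like and 15 striatum-like libraries, so this test could not compare the classes. Among 16076 genes tested in all 60 libraries, 0 passed an adjusted p under 0.05 (limma), a share of 0%, and 397 had an unadjusted p under 0.05. The log2 differences of the 6 genes, labelled striatum minus labelled cortex, lay between -0.19 (Grm2) and 0.16 (Grm4). Within the cortex-like class, libraries labelled cortex and striatum had Grm5 medians of 50.5 and 52.6 and Grm2 medians of 3.78 and 3.1, and within the striatum-like class 84.4 and 81 for Grm5 and 0.847 and 0.764 for Grm2. These label differences were small beside the ranges within each class.

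**Figure D3:**
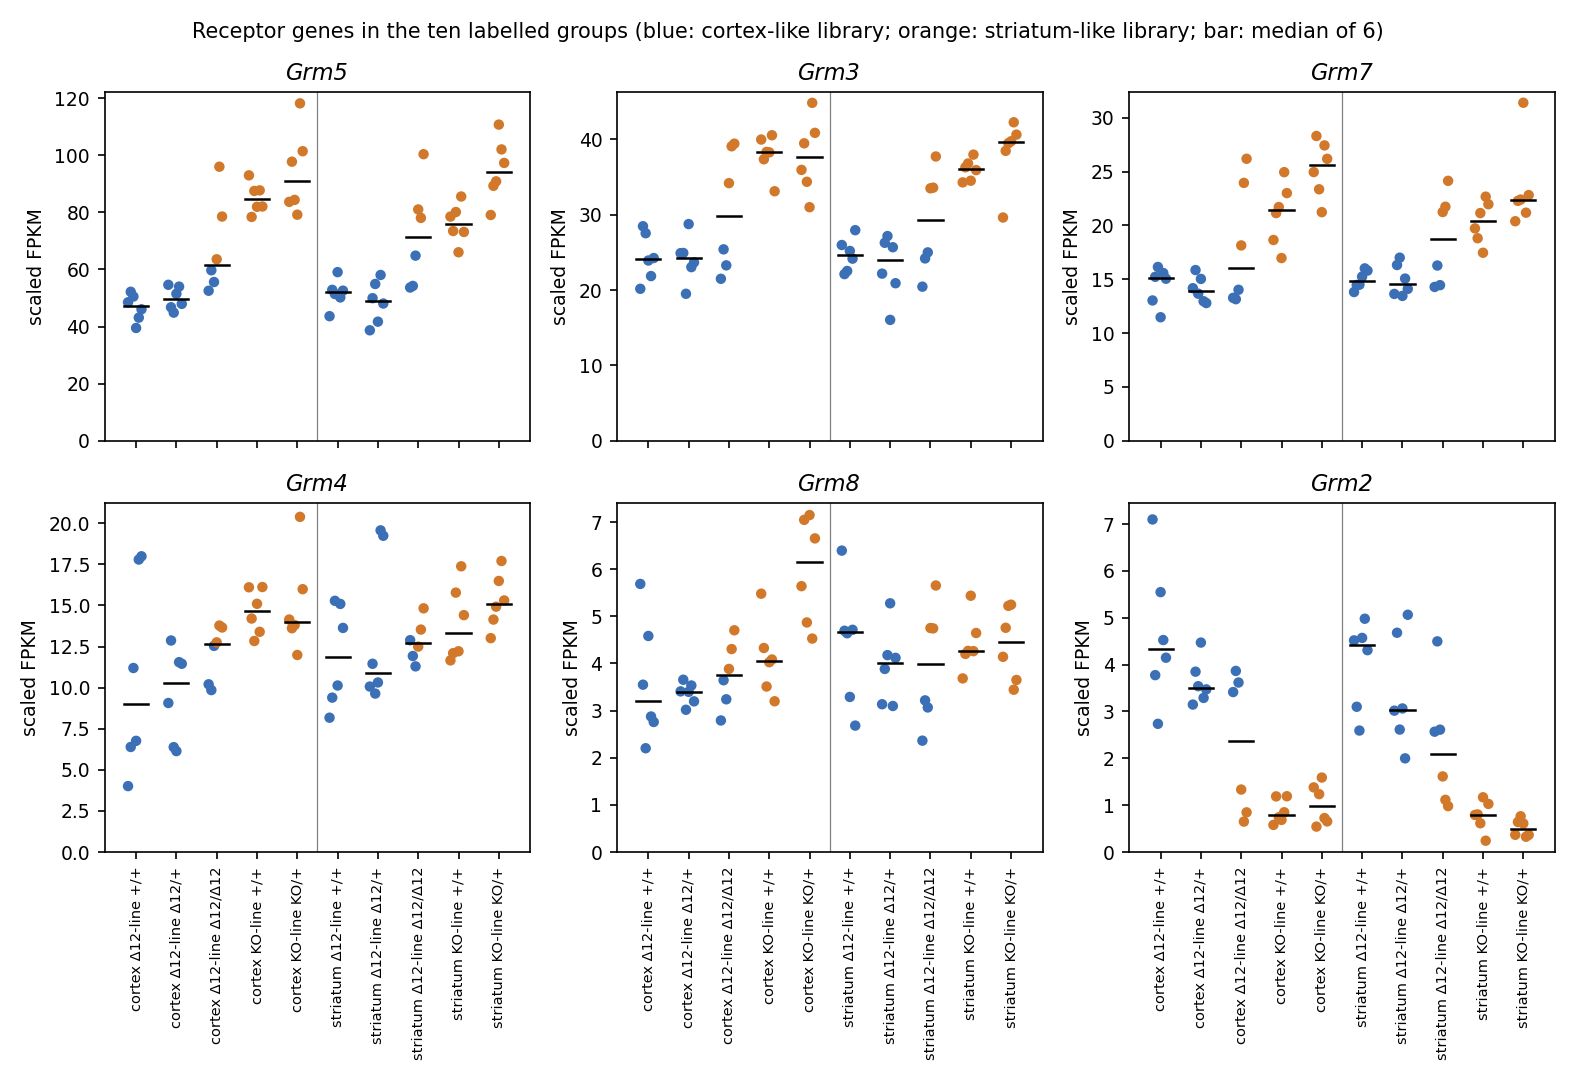
Scaled FPKM (linear axis) of the 6 receptor genes in the 10 labelled groups of 6 libraries, coloured by expression class (blue cortex-like, orange striatum-like), with bars at the group median. The Δ12/Δ12 groups hold 3 blue and 3 orange libraries under each tissue label, and the KO-line groups are all orange.

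The KO line asked what loss of an Htt allele does, and here all 24 libraries were striatum-like. In those labelled striatum, Grm5 was the receptor gene that passed the test. Its scaled FPKM in +/+ was 78.5, 73.5 and 80.1 in the libraries labelled male and 66, 85.6 and 73.1 in those labelled female. In KO/+ it was 79.1, 89.3 and 90.9 in the libraries labelled male and 111, 102 and 97.3 in those labelled female. The groups overlapped in part, with means of 76.1 ± 6.77 (SD, n = 6) and 94.9 ± 11 (SD, n = 6). The log2 difference was 0.31 (SE 0.08, 95% confidence interval 0.13 to 0.50), with an adjusted p of 0.0495 by limma. Of 15808 genes 6.91% passed, 3.51% higher and 3.4% lower, and of the 6 receptor genes 1 was higher and 0 lower. The call sat at the threshold: the adjusted p was 0.224 on the FPKM as deposited and 0.18 after quantile normalization. Over the 12 fits that left out a library it ran from 0.0339 to 0.111, and it stayed under 0.05 only without +/+ male 3 or KO/+ male 1.

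Other values moved with it. The summed level of the 8 striatal projection neuron markers was 1071 to 1425 in +/+ and 1500 to 1953 in KO/+, with all 8 medians higher in KO/+, and that of the 3 thalamus markers was 40.8 to 66.7 in +/+ and 6.12 to 14.7 in KO/+. Neither pair of ranges overlapped. The 4 hypothalamus markers summed to 6.16 to 139 in +/+ and 0 to 1.55 in KO/+, where Hcrt was at 0 in all 6 libraries. The 3 oligodendrocyte markers summed to 588 to 743 in +/+ and 492 to 565 in KO/+, again without overlap, and the 6 cortical excitatory neuron markers to 17.1 to 34.8 and 12.6 to 52, with 5 of 6 medians higher in KO/+. The part of these markers in the Grm5 difference was not tested. Genes of 8000 bases or more had a median log2 difference of 0.05 in the same comparison.

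The other 5 receptor genes did not pass there. Grm2 was at 0.242 to 1.17 in +/+ and 0.327 to 0.764 in KO/+ (log2 difference -0.31, SE 0.19, adjusted p = 0.392), and the differences of Grm3, Grm4, Grm7 and Grm8 lay between -0.01 and 0.19. Of 28 pathway genes tested, 5 were higher and 2 lower, where 3.51% and 3.4% of all genes were. Grasp, which encodes the group I scaffold tamalin, rose by 0.61 on the log2 scale (SE 0.10, limma adjusted p = 0.0072), from a median of 11 to 16.2. Its groups did not overlap, and the same held for Homer1, Homer2, Itpr1, Plcb4 and Gnai1, the last of which was not called. The share of all genes without overlap was not counted in this comparison. Homer1 rose by 0.39 (SE 0.08), Itpr1 by 0.35 (SE 0.06), the phospholipase gene Plcb1 by 0.33 (SE 0.08) and Rgs4, an inhibitor of Gq and Gi signalling, by 0.29 (SE 0.07). Homer2 fell by 0.61 (SE 0.11), and Plcb4, a phospholipase C gene known from thalamic neurons, fell by 1.46 (SE 0.16), from 20.9 to 35.5 in +/+ to 6.29 to 12.2 in KO/+. The median log2 difference was 0.11 for the 6 receptors, 0.11 for the 28 pathway genes and 0.02 for all genes.

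In the KO-line libraries labelled cortex, 0 of the 6 receptor genes passed, where 0.0885% of 15820 genes did (2202 at an unadjusted p under 0.05). Grm8 had the largest difference. It was at 3.2 to 5.48 (median 4.06) in +/+ and 4.53 to 7.15 (median 6.15) in KO/+, and the groups overlapped. Its log2 difference was 0.49 (SE 0.14, 95% interval 0.18 to 0.80), with an adjusted p of 0.194 by limma. Grm7 followed with 0.26 (SE 0.10, adjusted p = 0.301), and Grm5 had 0.13 (SE 0.10). The difference between the labelled tissues in the KO/+ effect was tested as an interaction: 0 of 15917 genes passed, a share of 0%, with 1788 at an unadjusted p under 0.05. For Grm5 the interaction was 0.18 (95% interval -0.08 to 0.44) and for Grm8 -0.50 (-0.88 to -0.12, adjusted p = 0.354). The Grm5 call under the striatum label is thus not shown to differ from the value under the cortex label. Both labels held striatum-like libraries alone, so the interaction could not test a difference between cortex-like and striatum-like tissue.

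The Δ12 line asked whether the shortened allele, in heterozygous or homozygous form, changes expression. For Δ12/+ all 24 libraries were cortex-like. With 0.00663% of 15077 genes passing under the striatum label (486 at an unadjusted p under 0.05) and 0.0662% of 15095 under the cortex label (1263), 0 of the 6 receptor genes passed in either. Their log2 differences lay between -0.23 (Grm2) and 0.13 (Grm4) under the striatum label and between -0.27 (Grm2) and 0.10 (Grm5) under the cortex label. For Grm5 the 95% intervals were -0.35 to 0.15 and -0.12 to 0.32, and for Grm4 they were -0.30 to 0.57 and -0.76 to 0.74. The interaction with labelled tissue passed for 0 of 15173 genes (0%, with 969 at an unadjusted p under 0.05). Both labels held cortex-like libraries alone, so it could not test a difference between cortex-like and striatum-like tissue.

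For Δ12/Δ12 each labelled group mixed 3 libraries of each class, while its +/+ group was cortex-like throughout. In the libraries labelled striatum, Grm5 was at 53.7, 54.2 and 64.8 in the 3 cortex-like libraries and at 81, 78.1 and 100.4 in the 3 striatum-like ones, against 43.6 to 59.1 in +/+. Grm2 was at 2.57, 4.5 and 2.61 in the cortex-like and 1.61, 1.11 and 0.98 in the striatum-like libraries, against 2.59 to 4.98 in +/+. The test by label called 28.3% of 15467 genes, 14.7% higher and 13.6% lower, and of the 6 receptor genes Grm5 as higher (log2 difference 0.45, SE 0.13, adjusted p = 0.0368) and Grm2 as lower (-0.83, SE 0.28, adjusted p = 0.0487). With the expression class as a covariate these became 0.22 (adjusted p = 0.495) and -0.076 (adjusted p = 0.915), and the number of genes called fell to 21. All striatum-like libraries of this comparison were Δ12/Δ12 labelled female. That fit thus in effect compared the 3 Δ12/Δ12 with the 3 +/+ libraries labelled male. The loss of both calls in it is therefore no test of the part of class. In Δ12/Δ12 the labelled sex coincides with the class, and without the covariate for labelled sex 9 genes were called and both receptor calls were lost (adjusted p = 0.131 for each). Leaving out any 1 of the 6 libraries labelled female ended both calls (adjusted p 0.0781 to 0.0885 for Grm5 and 0.105 to 0.114 for Grm2), and leaving out +/+ male 1 or Δ12/Δ12 male 3 ended that of Grm2 (0.0563 for each). Of 28 pathway genes, 8 were higher and 1 lower, where 14.7% and 13.6% of all genes were. Among these 9 Shank3 had the largest log2 difference, 1.68 (SE 0.45), with 6.2 to 60.9 in Δ12/Δ12, and was followed by Shank1 with 1.34 (SE 0.31), Elfn2 and Itpr1 with 1.04 each, Elfn1 with 0.95, Grasp with 0.88, Gnaq with 0.73 and Ncdn with 0.71. Slc1a3, the astrocytic glutamate transporter, was the lower one (-0.33, SE 0.10).

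Under the cortex label, 0.924% of 15696 genes passed (5978 at an unadjusted p under 0.05) and 0 of the 6 receptor genes. Grm5 was at 52.5, 59.7 and 55.6 in the cortex-like and 63.6, 96 and 78.5 in the striatum-like Δ12/Δ12 libraries, and 39.5 to 52.2 in +/+. The groups did not overlap, though the share of all genes without overlap was not counted here. The log2 difference was 0.51 (SE 0.17, limma adjusted p = 0.0746). Grm2 was at 3.42, 3.87 and 3.62 in the cortex-like and 1.33, 0.65 and 0.847 in the striatum-like libraries, against 2.74 to 7.1 in +/+, with a log2 difference of -1.04 (SE 0.33, adjusted p = 0.0706). Without +/+ male 2 both passed (adjusted p = 0.0473 and 0.0392). As under the striatum label, the Δ12/Δ12 values parted by class.

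**Figure D4:**
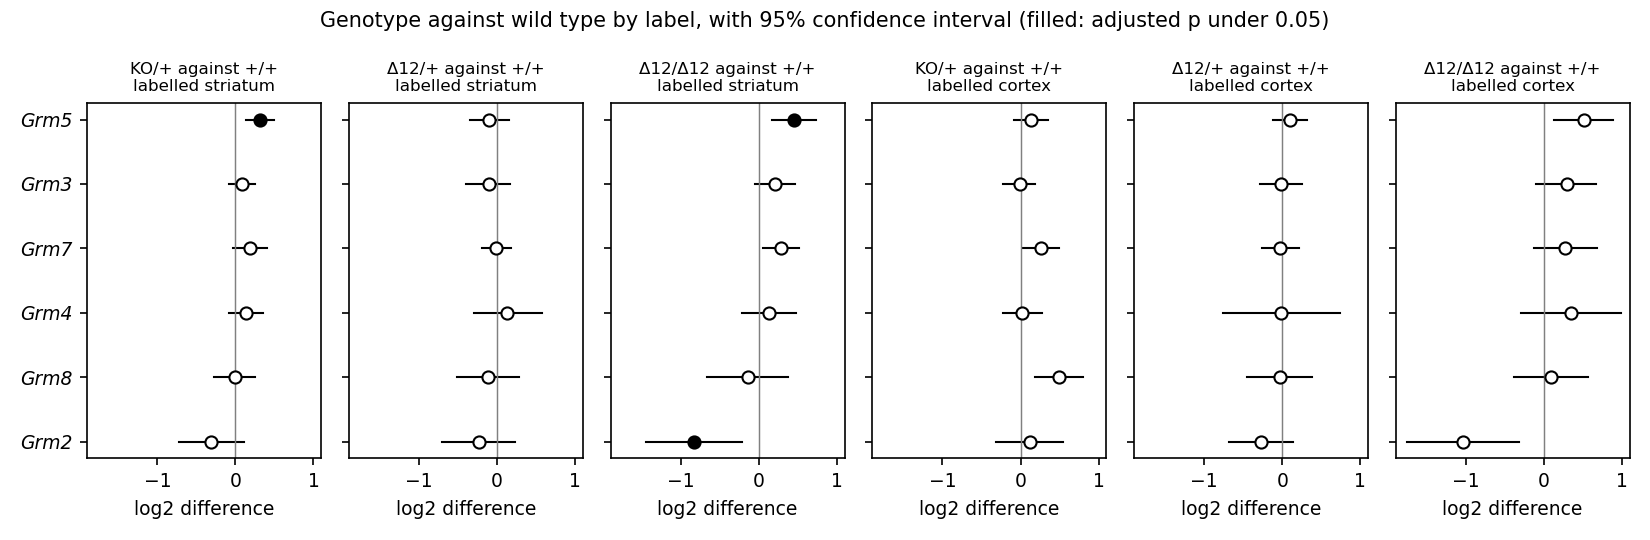
Log2 differences (horizontal axis) of the 6 receptor genes between each genotype and +/+ of its line, by labelled tissue, with 95% confidence intervals from limma and filled points for an adjusted p under 0.05. The 3 filled points are Grm5 in KO/+ (0.31) and Grm5 (0.45) and Grm2 (-0.83) in Δ12/Δ12, all in libraries labelled striatum.

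Within the striatum-like class Grm5 varied with 3 of the other 5 receptor genes in the same direction. Over its 30 libraries Grm5 correlated with Grm3 (r = 0.70, rho = 0.76), Grm4 (r = 0.68, rho = 0.63) and Grm7 (r = 0.69, rho = 0.62) on the log2 scale. Permutation p-values for r were 3e-05, 2e-05 and 7e-05, with adjusted values of 0.00033, 0.00033 and 0.00066 over 66 relations examined. Without the 2 libraries farthest from the Grm5 median, r was 0.64, 0.59 and 0.62. Grm2 ran the other way, with r = -0.48 (rho = -0.55, permutation p = 0.0065 for r and 0.0022 for rho, adjusted 0.026) against Grm5. Grm8 did not pass with any of the other 5 (r from -0.09 with Grm4 to 0.32 with Grm7, adjusted permutation p of 0.72 and 0.16). Grm3 and Grm4 gave r = 0.64 (rho = 0.58, permutation p = 0.00018 and 0.0009, adjusted 0.0013), while Grm7 with Grm3 (r = 0.43, permutation p adjusted 0.061) and with Grm4 (r = 0.40, permutation p adjusted 0.088) did not pass. For rho the permutation p-values with Grm3, Grm4 and Grm7 were 1e-05 (the smallest that 100000 resamples can give), 0.00024 and 0.00042. In the cortex-like class the closest pair was Grm3 and Grm7 (r = 0.47, rho = 0.54, permutation p = 0.0078 and 0.0024, adjusted 0.029, r = 0.47 without the 2 farthest libraries), and Grm5 with Grm4 gave r = 0.13 (rho = 0.06, permutation p = 0.48 and 0.74). Libraries of a class come from several labelled groups and share their scaling, so these relations describe the libraries and not a genotype. The permutations here and below treated the libraries as independent, although labelled mice gave a library under each tissue label. Their p-values may therefore be too small. The share of all genes that reach such r with Grm5 is not given here.

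The mean log2 level of the 8 striatal projection neuron markers ran with Grm5, Grm4 and Grm3 in the striatum-like class. It correlated with Grm5 at r = 0.84 (rho = 0.80, permutation p = 1e-05 for both, adjusted 0.00022) and with Grm4 at r = 0.77 (rho = 0.73, permutation p = 1e-05 and 3e-05, adjusted 0.00022). Leaving out the 2 libraries farthest from the median marker level gave r = 0.78 and 0.72. Grm3 followed less closely (r = 0.58, rho = 0.63, permutation p = 0.00087 and 0.00036, adjusted 0.0057, r = 0.48 without 2 libraries), and Grm2 was lower where the markers were higher (r = -0.53, rho = -0.60, permutation p = 0.0022 and 0.00043, adjusted 0.012, r = -0.53 without 2 libraries). Grm2 lay at only 0.242 to 1.61 scaled FPKM there, with a median deposited interval of 67.2% on the upper side, which limits all its relations in this class. Neither Grm7 (r = 0.42, rho = 0.33, permutation p = 0.022 and 0.079, adjusted 0.068, r = 0.28 without 2 libraries) nor Grm8 passed (r = 0.05, rho = 0.10, permutation p = 0.79 and 0.6). In the cortex-like class the markers ran with Grm7 (r = 0.58, rho = 0.62, permutation p = 0.001 and 0.00029, adjusted 0.006, r = 0.46 without 2 libraries). The length score ran with Grm7 in the striatum-like class (r = 0.76, rho = 0.69, permutation p = 1e-05 for both, adjusted 0.00022, r = 0.70 without 2 libraries). With Grm5 there it gave r = 0.49 (rho = 0.33, permutation p = 0.0067 and 0.075, adjusted 0.026), which was 0.23 without 2 libraries and so rests on them. In the cortex-like class it ran with Grm3 (r = 0.68, rho = 0.77, permutation p = 3e-05 and 1e-05, adjusted 0.00033, r = 0.64 without 2 libraries) and Grm5 (r = 0.65, rho = 0.65, permutation p = 0.00011 and 0.00016, adjusted 0.00091, r = 0.70 without 2 libraries), and also with Grm7 (r = 0.50, rho = 0.42, permutation p = 0.0055 and 0.02, adjusted 0.026, r = 0.39 without 2 libraries). The cortical excitatory neuron markers passed with no receptor gene in either class. In the striatum-like class they gave r = 0.33 with Grm2 and -0.42 with Grm3 (adjusted permutation p of 0.16 and 0.068).

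Under the striatum label KO/+ and +/+ of the KO line differed both in Grm5 and in the summed markers, whereas under the cortex label the summed markers had medians of 1492 and 1505. The relation was also read within each genotype, over its 12 libraries of both labels, which come from 6 labelled mice. The permutations treated these libraries as independent, so their p-values may be too small. The part of the markers in the Grm5 difference was not tested. In KO/+ the markers ran with Grm5 at r = 0.89 (rho = 0.89, permutation p = 0.00014 and 0.0004, r = 0.81 without 2 libraries) and with Grm4 at r = 0.91 (rho = 0.87, permutation p = 3e-05 and 0.0006, r = 0.83 without 2 libraries). In +/+ the values were r = 0.57 for Grm5 (rho = 0.44, permutation p = 0.052 and 0.15) and r = 0.67 for Grm4 (rho = 0.59, permutation p = 0.02 and 0.046), each 0.51 without 2 libraries. For Grm2, r was -0.70 in KO/+ (rho = -0.60, permutation p = 0.011 and 0.043) and -0.25 in +/+ (rho = -0.29, permutation p = 0.44 and 0.37), with -0.73 and -0.21 without 2 libraries. Adjusted over these 6 relations, the permutation p of r was 0.00042 (Grm5), 0.00018 (Grm4) and 0.022 (Grm2) in KO/+ and 0.062, 0.03 and 0.44 in +/+. These libraries are part of the striatum-like class read above, so the split is no independent support. The adjustment covers Grm5, Grm4 and Grm2 alone, and Grm3, which also passed with the markers in the class, was not read here.

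**Figure D5:**
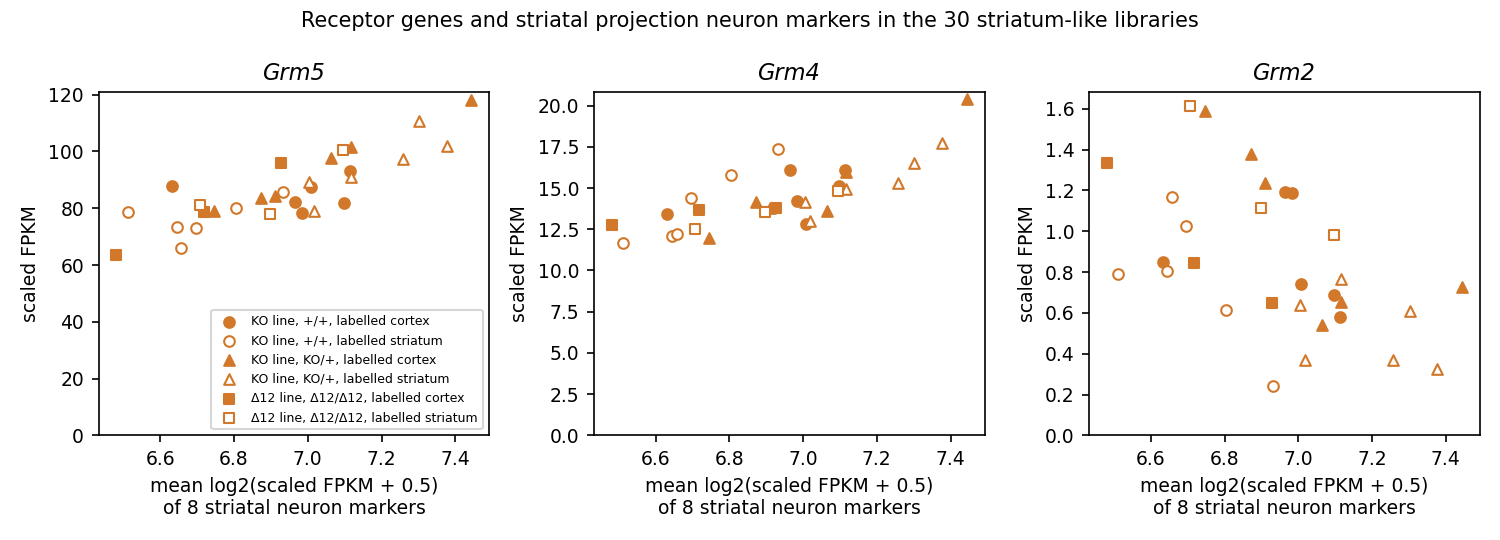
Scaled FPKM of Grm5, Grm4 and Grm2 (vertical axes) against the mean log2 level of 8 striatal projection neuron markers in the 30 striatum-like libraries, with circles for +/+ and triangles for KO/+ of the KO line, squares for Δ12/Δ12, filled for the cortex label and open for the striatum label. Grm5 and Grm4 climb with the markers (r = 0.84 and 0.77) and Grm2 declines (r = -0.53).

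The genes whose log2 levels ran most closely with each receptor gene were found by Pearson's r among genes with a mean scaled FPKM of at least 2 in the class, over 30 libraries, and are given as a description. In the striatum-like class Grm5 was closest to Gria2, an AMPA receptor subunit gene (r = 0.94, rho = 0.93), Lmo7 (0.91) and the sodium channel gene Scn2a1 (0.90). Grm4 was closest to Fam110b, Gpr155 and the phosphodiesterase gene Pde10a, each at 0.85, Grm7 to Gm10855 (0.87), Csmd1 (0.86) and RP23-474B17.2 (0.85), and Grm3 to Wdr17 (0.84), Ppp4r4 (0.83) and Dock4 (0.82). Grm2 was closest to Tatdn3 (0.71), Camk1 (0.70) and the potassium channel gene Kcnc4 (0.69), and Grm8 to Ttll4 (0.68), Ddx51 (0.59) and Alkbh1 (0.58). In the cortex-like class the leading genes were others: Clasp2 (0.87), Herc1 (0.77) and AI593442 (0.76) for Grm3, Phkb (0.83), Smox (0.82) and Dcaf17 (0.82) for Grm4, and Top1 (0.74), Pcdh11x (0.73) and Ddx17 (0.72) for Grm5. For Grm2 they included Tmem109 (0.72) and Gm10263 (0.71), for Grm7 Spop (0.72), Kif1b (0.72) and Rusc2 (0.69), and for Grm8 Llph-ps2 (0.76), Meaf6 (0.66) and Spag7 (0.65).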

How the data were processed

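RNA was sequenced from directional, rRNA-depleted libraries. Per the labels, the submitters' processing notes name bcl2fastq 2.20, Trimmomatic 0.30, TopHat2 2.0.14, SAMtools 1.3, HTSeq 0.6.1p1 and the build GRCm38.p4; the tool that gave FPKM and the annotation release are not given in the sources used here. Each library has a table, deposited by the authors, of FPKM per gene (scaled for gene length and sequencing depth) with its confidence bounds. The tables hold no counts, so depth is unknown.

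Of 47597 entries, 23 whose status was not OK in a library were dropped (after the data were seen). FPKM were divided by median-of-ratios factors (0.761 to 1.38) over the 13235 entries above 0 in all libraries. Tests used log2(scaled FPKM + 0.5), genes with a mean of at least 0.5 in the libraries fitted, limma 3.58.1 in R 4.3.3 with a term for labelled sex and p-values adjusted after Benjamini and Hochberg; fold changes of low genes are understated by the pseudocount. The fit was tested on simulated data. Correlations used Python 3.11.15 and numpy 2.4.6, two-sided permutation with 100000 resamples. Transcript lengths and positions are from GENCODE M21. P-values measure the spread between libraries as labelled. The labels give each mouse a cortex and a striatum library, but Xist and Ddx3y were alike in both for 16 of 30 mice. Deviations of the pairs labelled as a mouse correlated at 0.40 to 0.66 in Δ12/Δ12, whose groups mix the classes. In the other groups they correlated at -0.16 to 0.16. The title of 1 library names the Δ12 line and its genotype label the KO line; the genotype label was used.

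Cortex-like means a deposited FPKM of Slc17a7 above 100. The classes are set by measured values, so they carry no test. The receptor genes, the pathway list and the marker lists were chosen with earlier results of these data known. The named genes are the 6 receptors, pathway genes that were called or whose class medians differed at least 2 times (up to 12), and the 3 genes closest to each receptor. Marker lists also covered astrocytes, oligodendrocytes (without Mbp, dropped by status), their precursors, microglia, interneurons, choroid plexus, cerebellar granule cells and leptomeninges. Alternatives were other scalings, pseudocounts, no filter, no sex covariate, a replicate block, each library left out, and, for the classes, other splits. Some results that the rule would name are not reported here.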

Additional observations from a re-analysis of the deposited data

Results flagged for a closer look

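In 60 sets of 6 libraries (6 receptor genes in 10 labelled groups), 2 libraries stood apart from the rest of their group by Dixon's criterion, where chance flags about 1 set in 20. Grm3 was at 29.6 scaled FPKM in striatum KO-line KO/+ male 1, with the nearest of the other libraries at 38.5 and the highest at 42.3. Grm7 was at 31.4 in striatum KO-line KO/+ female 1, with the nearest at 22.8 and the lowest at 20.4. Both libraries belong to the group in which Grm5 was called.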

How the results depend on the processing

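The count of receptor genes called in KO/+ under the striatum label was 1 and fell to 0 on the FPKM as deposited, with quantile normalization, with a pseudocount of 0.1 (adjusted p of Grm5 0.0545), with no filter (0.0651) and with the replicate block (0.145), and was 0 to 1 when each library was left out. In Δ12/Δ12 under the striatum label it was 2 and became 1 on the FPKM as deposited (Grm5 lost), with a pseudocount of 0.1 and with no filter (Grm2 lost in both), 3 with quantile normalization, 0 with no sex covariate, with the replicate block and with expression class as a covariate, and 0 to 3 when each library was left out; under the cortex label it was 0, and 0 to 2. The other counts of receptor genes were 0 under each alternative. The genes called in all fell from 1093 to 306 as deposited and 302 with the block in KO/+ (striatum), from 14 to 0 with the block and rose to 110 as deposited in KO/+ (cortex), fell from 4381 to 9 with no sex covariate and 5 with the block in Δ12/Δ12 (striatum), and from 145 to 10 and 9 (cortex). Same-numbered libraries of a genotype and its +/+ group did not deviate together (r from -0.23 to 0.16), and 4 of 36 were closest to the +/+ library of their own number. The labels give no link between them beyond labelled sex and number, and a shared litter or batch was not tested. With the block by labelled mouse, the tissue and interaction comparisons kept 0 receptor genes called.

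The log2 difference of Grm3 in KO/+ under the cortex label, -0.01, turned to 0.014 with quantile normalization and ran from -0.07 to 0.047 (with 0.0044, 0.0065 and 0.012 among the positive values) when a library was left out, and that of Grm4 between labelled tissues turned to -0.02 in the KO line alone. The ratios of class medians moved on the FPKM as deposited to 1.3 (Grm5), 0.158 (Grm2), 1.17 (Grm3), 1.2 (Grm7) and 1.03 (Grm8), with Grm4 turning to 0.993, and with quantile normalization to 3.1 (Grm5), 2.17 (Grm3) and 1.82 (Grm7). A split by Drd2 above Slc17a7, libraries whose label names the tissue of their class, and leaving out striatum Δ12-line Δ12/+ male 3, which held striatal markers (chosen after seeing the data), moved no ratio beyond 1 SD. The causes were not tested. The deposited intervals limit Grm2 most.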
